A study of Homo sapiens with 47 samples.

Results

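The protein parts of the spliceosomal small nuclear ribonucleoproteins (snRNPs) were taken as all gene rows whose symbol begins with SNRP, with LSM and a digit, or with SF3A or SF3B. The rule found 42 of the 18651 gene rows. They were 7 core Sm genes, 4 genes of proteins specific to the U1 or U2 particle, 7 genes of the LSm ring (LSM1 to LSM7), 2 LSm genes of the U7 particle, 3 other genes with an LSm domain, 9 genes of the U2-bound factors SF3A and SF3B, and 10 rows named as pseudogenes of these genes. The data are counts of unique molecular identifiers (UMIs, random tags that mark each copied molecule) in 47 single cells of HEK293, an established human embryonic kidney line, grown in ordinary serum medium without treatment. Cells were captured and lysed in a Fluidigm C1 circuit with 20000 ERCC spike-in molecules each, polyadenylated RNA was copied from an oligo-dT primer, and the 5′ ends of the transcripts were sequenced in 1 Ion Torrent run. The labels name 1 cell line and neither groups nor separate cultures, so each gene is described over the 47 cells, named by the number in their labels, and p-values speak of the spread between these cells.

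In the spliceosome, Sm proteins form a ring around the U1, U2, U4 and U5 snRNAs, and the ring is loaded in the cytoplasm by the SMN complex before the particle returns to the nucleus. The related LSm proteins form a like ring on U6 snRNA, and with LSM1 in place of LSM8 a cytoplasmic ring that takes part in mRNA decay. SF3A and SF3B belong to the U2 snRNP and hold it at the branch site of the intron.

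A cell held 29325 to 138647 endogenous UMIs, with a median of 59689, and 2573 to 4717 spike-in UMIs, which is 17.7% of the spike-in molecules added. Levels below are UMIs scaled to 59689 endogenous UMIs per cell, called scaled UMIs. Since 1 UMI marks 1 cDNA 5′ end, they need no division by transcript length to be set side by side between genes. A long transcript is counted only if it was copied to its 5′ end, and whether genes of all lengths were recovered alike was not tested. Of the line's listed features, NEFL, NEFM, VIM, KRT8 and KRT18 held 112, 462, 728, 125 and 223 UMIs, while the blood and fibroblast markers measured held 6 and 13 UMIs in all. Cell 52 stood apart, with 18.7% of its endogenous UMIs from mitochondrially encoded genes against a median of 5.46%, and it was the lowest cell for the summed share of the Sm, LSm, SF3 and U1 or U2 specific genes alike.

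The 42 rows held 37765 UMIs, 1.29% of all endogenous UMIs, and 21 of them had a UMI in every cell, as had 5.54% of all gene rows. The core Sm genes made up the largest portion, with 20639 UMIs or 0.707% (exact binomial 95% interval 0.697% to 0.717%, counting error only). Their share ranged from 0.523% in cell 52 to 0.846% in cell 32. The LSm ring genes held 6382 UMIs or 0.219% (0.213% to 0.224%), from 0.147% in cell 52 to 0.301% in cell 32. The SF3 genes held 5312 UMIs or 0.182% (0.177% to 0.187%), from 0.116% in cell 52 to 0.267% in cell 73. The 4 U1 and U2 specific genes held 3800 UMIs or 0.130% (0.126% to 0.134%), from 0.0673% in cell 52 to 0.188% in cell 14. Divided by the spike-in recovery, the Sm genes came to about 2476 mRNA molecules per cell in sum and the LSm genes to about 766. That estimate takes endogenous mRNA to be recovered like the spike-ins, which was not tested.

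The order of the classes held within single cells. The median Sm gene was above the median LSm gene and above the median SF3 gene in 47 of 47 cells, and the median LSm gene was above the median SF3 gene in 46 cells and equal to it in 1. The summed Sm UMIs were 3.23 times the summed LSm UMIs, from 2.33 times in cell 75 to 4.92 times in cell 35. The classes were not separate gene by gene: the lowest Sm gene exceeded the highest LSm gene in 22 of 47 cells, and the highest SF3 gene lay under the lowest Sm gene in 13.

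**Figure D1:**
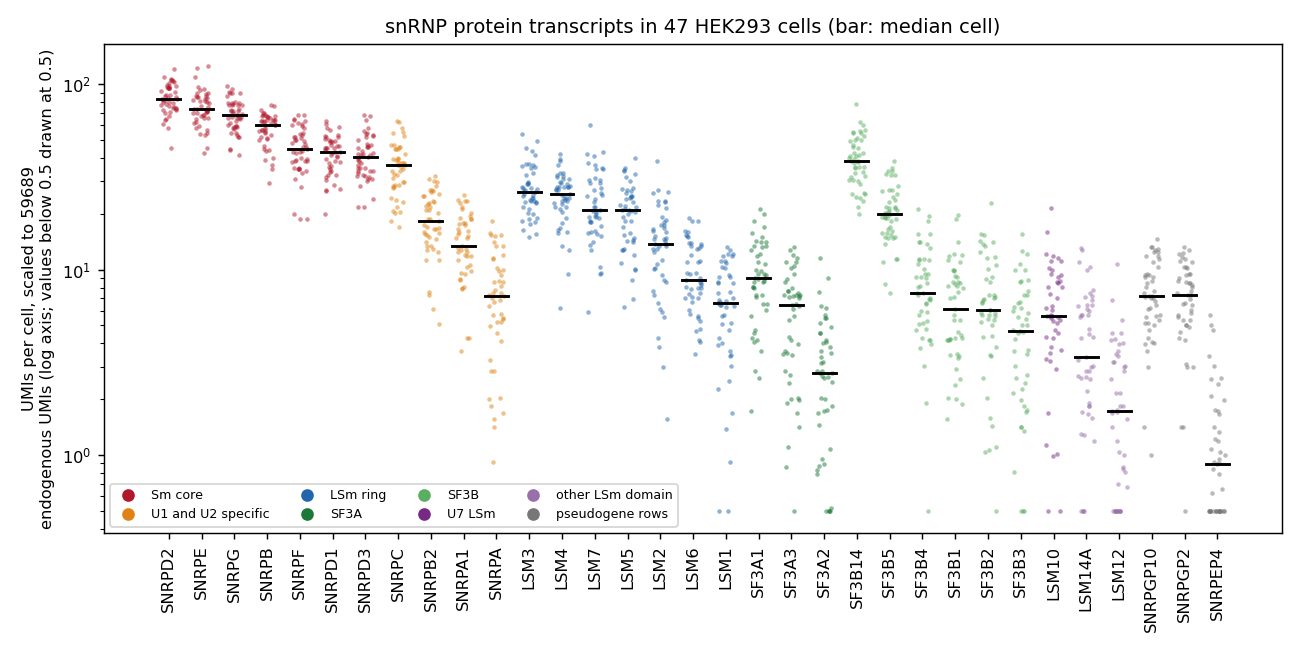
Scaled UMIs of the 33 tested genes and pseudogene rows in each of 47 cells on a log axis, with 1 point per cell, colours for the classes and a bar at the median cell. The 7 Sm genes have the highest medians, from 40.4 to 83.5 scaled UMIs, and the SF3B genes span a wide range from SF3B14 to SF3B3.

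The 7 core Sm genes lay within 2.00-fold of each other in mean UMIs. SNRPD2 was the highest, with 45.6 scaled UMIs in its lowest cell, 83.5 in the median cell and 120 in its highest. SNRPE ran from 42.7 in cell 23 through a median of 73.2 to 125 in cell 50. SNRPG ran from 41.6 through 68.4 to 97.6, and SNRPB, whose transcripts are spliced into the SmB and SmB′ forms, from 29.2 through 60.3 to 77.6. These 4 genes formed the upper step of the class. The lower step was SNRPF (18.7, 45 and 68.6 in the lowest, median and highest cell), SNRPD1 (20.1, 43.2 and 63.4) and SNRPD3 (21.8, 40.4 and 68.2). Within cells, SNRPB exceeded SNRPF in 40 of 47 cells, whereas SNRPF exceeded SNRPD1 in 24 and SNRPD1 exceeded SNRPD3 in 26, so that the order among the 3 lower genes did not differ beyond their spread. No Sm gene was without a UMI in any cell.

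The U1 and U2 specific genes spread over 4.55-fold in mean UMIs. SNRPC, which encodes the zinc finger protein of the U1 particle, ran from 17 through a median of 36.6 to 63.4 scaled UMIs, and SNRPA, which encodes a U1 protein that binds a loop of U1 snRNA, from 0.920 through 7.23 to 18.3. The proteins of SNRPB2 and SNRPA1 bind each other on U2 snRNA. These genes lay closer together: SNRPB2 ran from 5.06 through 18.2 to 32.1, and SNRPA1 from 0 in cell 23 through 13.4 to 25.4. Thus the highest and the lowest gene of these 4 both belong to the U1 particle.

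The LSm ring genes covered 4.17-fold in mean UMIs. LSM3 ran from 15.1 through a median of 26.2 to 53.8 scaled UMIs, LSM4 from 6.24 through 25.5 to 42.3, LSM7 from 5.92 through 20.9 to 60.7 and LSM5 from 6.27 through 20.9 to 40.2. These 4 were not ordered within cells, since LSM3 exceeded LSM4 in 24 of 47 cells, LSM4 exceeded LSM7 in 21 and LSM7 exceeded LSM5 in 25. LSM2 ran from 1.56 through 13.7 to 38.5 and LSM6 from 3.51 through 8.83 to 19. LSM1, the subunit that marks the cytoplasmic decay ring, was the lowest of the ring, from 0 in 2 cells through 6.61 to 13.2. LSM8, the subunit that marks the nuclear ring, had no row under that symbol. RefSeq lists NAA38 both as an older name of LSM8 and as the present name of the gene once called LSMD1. The table has rows under NAA38 and LSMD1 and none under LSM8, so that NAA38 may be used there in its older sense. The NAA38 row, which the selection by name does not take in, held 487 UMIs, with a median of 9.70 and a highest cell of 22.6 scaled UMIs. The LSMD1 row held 1400.

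The remaining LSm-domain genes were lower. LSM10, which with LSM11 replaces Sm subunits in the U7 particle of histone mRNA 3′ processing, ran from 0 in 2 cells through 5.65 to 21.5 scaled UMIs in cell 16. LSM11 held 26 UMIs in 14 cells. LSM14A, a protein of cytoplasmic mRNP granules, ran from 0 through 3.37 to 13.1 and exceeded its relative LSM14B, which held 11 UMIs in 6 cells. LSM12 ran from 0 in 11 cells through 1.72 to 10.7.

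Among the SF3 genes the mean UMIs differed by 13.5-fold. SF3B14, now named SF3B6, encodes the small subunit found at the branch adenosine, and ran from 20.1 in cell 52 through a median of 38.5 to 78.1 scaled UMIs in cell 28. SF3B5, which encodes another small subunit, ran from 7.51 through 20.0 to 38.5. The other SF3B genes that the name rule takes in lay well below these 2. SF3B4 ran from 0 through 7.51 to 21.2, and SF3B1, the gene of the large scaffold subunit, from 1.56 through 6.10 to 19.8. SF3B2 ran from 0 through 6.08 to 22.8 and SF3B3 from 0 in 3 cells through 4.68 to 15.5. PHF5A, an SF3 partner whose name the rule does not take in, held 228 UMIs. It ran from 0 through 4.60 to 12.7 scaled UMIs. Of the 3 SF3A genes, SF3A1 ran from 1.72 through 9.0 to 21.2, SF3A3 from 0 through 6.43 to 13.2, and SF3A2 from 0 in 4 cells through 2.77 to 11.5. SF3A1 thus lay above and SF3A2 below the medians of the 4 lower SF3B genes, and SF3A3 lay among them.

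Genes of short proteins tended to be the higher ones across these classes. Over the 30 tested coding genes, the mean UMIs and the coding length of the principal transcript in GENCODE v29 had a Spearman rho of -0.64, beside -0.38 over the 5835 of 6151 tested genes with a length. This is across genes, which are not independent replicates. SF3B14 and SF3B5 have coding lengths of 375 and 258 bases, while SF3B1 and SF3B3 have 3912 and 3651. Ring genes of like length could still differ in level. As 1 example, SNRPG and LSM6 have 228 and 240 coding bases and differed from 68.4 to 8.83 in the median cell. The relation to length within the ring genes alone was not computed.

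How far a gene spread over cells is given as its index of dispersion: its UMIs were set against counts in proportion to the endogenous total of each cell, and the resulting chi-square was divided by 46 degrees of freedom, so that counting error alone gives 1. The tests took in every gene that reached 1 UMI per cell on average, which left 33 of the 42 rows and 6151 genes, whose p-values were adjusted together after Benjamini-Hochberg and called under 0.05. Against counting error 32 of the 33 rows passed, where 92.4% of all tested genes passed, and the exception was the pseudogene row SNRPGP2. The spike-ins, added alike to each cell, had a median index of 2.11 themselves, and the 52 in the line ranged from 0.757 to 3.97. Some single spike-ins thus had a higher index than SF3B14 and LSM2, called below, since the line was taken as exact and their scatter about it was not counted. Against the level of a line through the spike-ins, 4 of the 33 passed, LSM7, SNRPE, SF3B14 and LSM2, where 7.64% of all tested genes passed. At an unadjusted p under the threshold there were 11 of 33, beside 16.2% of all tested genes. The median index was 2.35 over the 33 rows and 2.09 over all tested genes. The members were also more abundant, with a median of mean UMIs of 8.18 over the 42 rows and 2.66 over all tested genes. The 42 rows include the 9 under the minimum, which lower their median, so the tested members were more abundant than 8.18 tells. Among genes with at least 5 UMIs per cell on average, 6 of 29 members passed against the spike-in line (20.7%), beside 24.9% of genes. The higher share of members called at the lower minimum was thus not seen among the more abundant genes.

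LSM7 had the highest index of the members, 4.68, with an adjusted p of 2.09e-05 (chi-square against the spike-in line, Benjamini-Hochberg). It was 60.7 scaled UMIs in cell 32 and 42.9 in the next cell, 50, and without cell 32 its adjusted p was 0.0151. SNRPE followed with an index of 4.04 and an adjusted p of 0.000297 in the same test. Its 2 highest cells were again 50 and 32, with 125 and 123 scaled UMIs, and its adjusted p was 0.0337 without cell 50 and 0.00906 without cell 32. Thus both calls were kept when any single cell was left out.

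The calls of SF3B14 and LSM2 did not survive the removal of some single cells. SF3B14 had an index of 3.35 and an adjusted p of 0.0222 (same chi-square test), and 78.1 scaled UMIs in cell 28 against 63.0 in the next. Without cell 28 its adjusted p was 0.131, and the call was also lost without cell 2. LSM2 had an index of 3.34 and an adjusted p of 0.0454, with 38.5 scaled UMIs in cell 8 against 26.8 in the next, and its adjusted p was 0.146 without cell 8. Close to the threshold as it was, the call of LSM2 was lost without any of 18 of the 47 cells. LSM5 and SNRPC lay just outside the threshold with adjusted p of 0.0722 and 0.0684.

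The index grows with abundance in this table, so each member was also placed among the 200 tested genes nearest to it in mean UMIs, as a description. SNRPB had an index of 1.82 and lay at the 1.5th percentile of its neighbours, whose median index was 3.28. SNRPD1 lay at percentile 10, SNRPD2 at 15.5, SNRPG at 22, SNRPD3 at 34.5, SNRPF at 36.5 and SNRPE at 67. With its 3 pseudogene rows added, SNRPG moved from percentile 22 to 52.5, so its place turns on how those rows, described below, are counted. The LSm ring genes covered nearly the whole scale, from LSM6 at 6.5 and LSM4 at 11 to LSM2 at 81.5 and LSM7 at 94. The SF3 genes ran from SF3A3 at 22.5 to SF3B2 at 80. The 5 Sm genes other than SNRPE and SNRPG thus lay below the middle of their neighbours' spread.

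**Figure D2:**
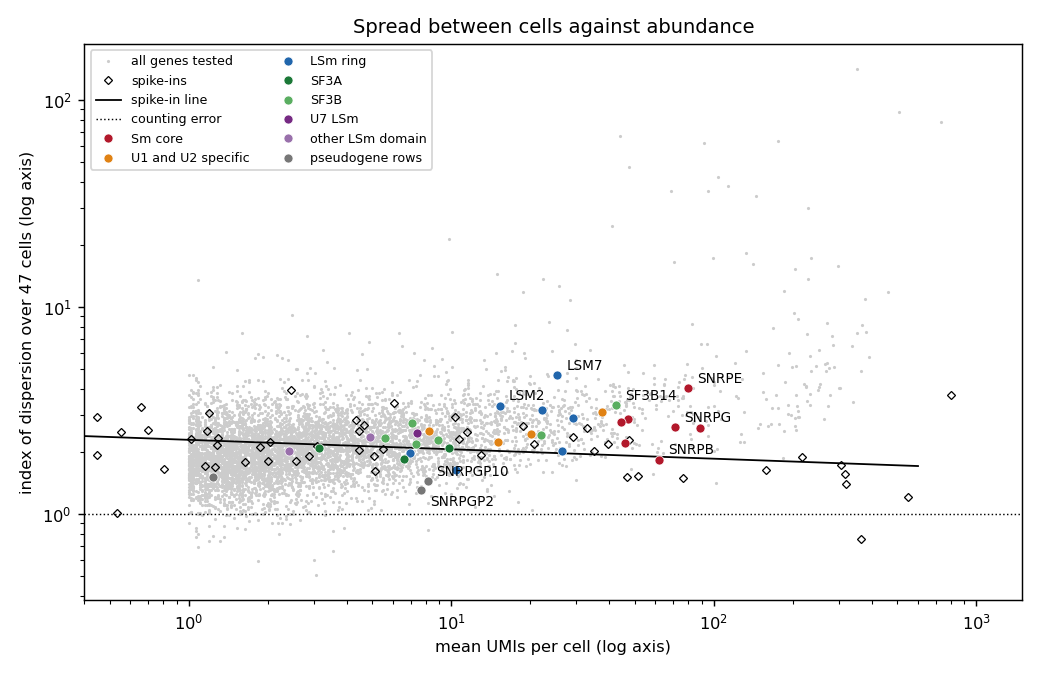
Index of dispersion over 47 cells against mean UMIs per cell, both on log axes, for all 6151 tested genes (grey), spike-ins (diamonds) with their fitted line, and the 33 tested members in class colours; the dotted line at 1 is counting error. LSM7 at 4.68 and SNRPE at 4.04 lie highest among the members, and SNRPGP2 at 1.30 lies lowest.

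Cell by cell, the split of UMIs between SNRPG and its pseudogene rows SNRPGP10 and SNRPGP2 varied no more than counting error gives. For SNRPGP2 this does not show that it followed SNRPG closely, since its values against some other members, given below, were nearly as low. SNRPGP15 was too low to be set against SNRPG in this way. SNRPGP10 and SNRPGP2 held 382 and 362 UMIs, 11.4% and 10.8% of the 3341 UMIs of SNRPG, and SNRPGP15 held 41. The rows of SNRPE held less, with 58 UMIs in SNRPEP4 and 43 in SNRPEP2 beside 3767 in SNRPE. The other 5 pseudogene rows, SNRPD2P1, LSM12P1, LSM3P3, SNRPFP1 and SF3A3P1, held 6, 4, 3, 3 and 2 UMIs. To show how alike these rows are, the SNRPG coding sequence and its pseudogenes from GENCODE v29 (GRCh38) are given 5′ to 3′, with capitals at bases that differ from SNRPG.
SNRPG: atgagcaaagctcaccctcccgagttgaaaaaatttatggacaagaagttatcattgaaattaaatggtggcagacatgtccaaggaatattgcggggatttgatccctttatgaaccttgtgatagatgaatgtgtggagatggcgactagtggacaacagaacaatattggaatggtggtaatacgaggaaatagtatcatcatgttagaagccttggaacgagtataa
SNRPGP10: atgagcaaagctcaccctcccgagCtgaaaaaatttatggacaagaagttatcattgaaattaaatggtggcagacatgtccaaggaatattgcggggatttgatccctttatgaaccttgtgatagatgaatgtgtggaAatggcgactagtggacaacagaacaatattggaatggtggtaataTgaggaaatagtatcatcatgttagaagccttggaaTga
SNRPGP2: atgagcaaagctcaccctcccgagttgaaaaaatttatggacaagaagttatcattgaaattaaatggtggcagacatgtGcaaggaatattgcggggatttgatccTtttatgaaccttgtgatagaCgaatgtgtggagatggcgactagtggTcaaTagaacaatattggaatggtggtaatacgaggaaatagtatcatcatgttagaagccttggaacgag
SNRPGP15: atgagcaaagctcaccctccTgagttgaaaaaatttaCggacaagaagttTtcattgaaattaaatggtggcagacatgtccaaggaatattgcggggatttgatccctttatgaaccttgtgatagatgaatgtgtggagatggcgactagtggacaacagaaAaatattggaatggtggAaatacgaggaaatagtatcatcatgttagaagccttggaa
These pseudogenes lie at chr1:205351247-205351471 (plus strand), chr18:54406889-54407114 (minus strand) and chr19:14489388-14489609 (plus strand). SNRPGP10 differs from SNRPG at 4 of its 225 bases, SNRPGP2 at 5 of 226 and SNRPGP15 at 5 of 222, and each is annotated as 1 unbroken stretch. SNRPEP4 and SNRPEP2 are 98.6% and 97.8% identical to the coding sequence of SNRPE. Reads of a parent and its copies may therefore be split among rows. The reads cover 5′ ends, and the transcripts used hold 122 bases before the coding part for SNRPG and 45 for SNRPE. Likeness in those bases was not compared. How reads with several matches were treated is not given in the sources used here, and no level of these rows can be read as transcription of the pseudogene.

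Set against SNRPG cell by cell, in a table of 2 rows by 47 cells, SNRPGP10 gave an index of 0.897 and SNRPGP2 of 0.982. The same index of SNRPG against the 30 tested members outside its family ran from 1.35 to 3.07, with a median of 2.33. That index depends on the counts of both rows, and with the smaller counts of the pseudogene rows the same range was 1.29 to 2.12 for SNRPGP10 (median 1.67) and 1.07 to 1.95 for SNRPGP2 (median 1.57). For SNRPGP2 the value against SNRPG was therefore close to the lowest of those against other members, among them 1.08 against SNRPE. On their own, the indices of SNRPGP10 and SNRPGP2 were 1.44 and 1.30, and only 9.84% and 5.48% of tested genes had a lower one. Adding the 3 pseudogene rows to SNRPG gave 4126 UMIs and raised its index from 2.62 to 3.69. The adjusted p of SNRPG in the chi-square test against the spike-in line then went from 0.262 to 0.00212, so that its call turns on how these rows are counted. With all pseudogene rows added to their parents, 5 of 30 members passed that test.

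**Figure D3:**
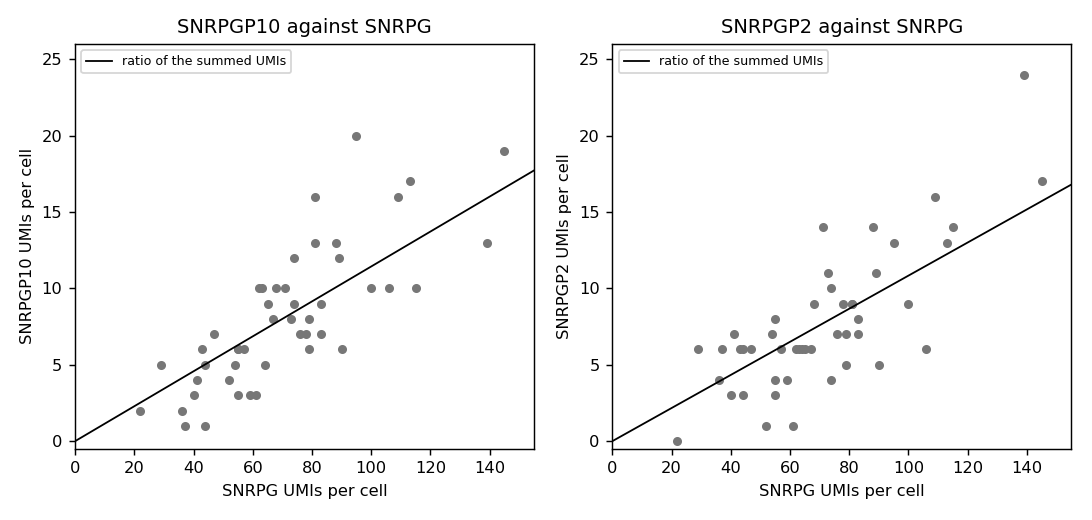
Unscaled UMIs of SNRPGP10 (left) and SNRPGP2 (right) against those of SNRPG, with 1 point for each of 47 cells and a line at the ratio of the summed UMIs. Both pseudogene rows scatter about a line of fixed ratio to SNRPG, 11.4% on the left and 10.8% on the right.

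Relative to the endogenous total of each cell, the median correlation between members of the same ring was near that of all gene pairs. Within the Sm core the median Spearman rho of the 21 gene pairs was 0.085, from -0.27 to 0.46. Within the LSm ring it was -0.013, from -0.21 to 0.51, and within SF3, over 36 pairs, 0.021, from -0.33 to 0.29. All pairs of tested genes had a median of 0.017, pairs of genes with a mean of at least 20 UMIs 0.026, and spike-in pairs 0.010. Scaling by the spike-ins instead leaves the cells' differences in total UMIs in the values. The medians were then 0.66 for the Sm core, 0.30 for the LSm ring and 0.22 for SF3. No value for all gene pairs on that scale is given beside them. Their order is also that of abundance, with class medians of mean UMIs of 61.8, 22.1 and 7.34. Whether the Sm genes co-vary more than other genes of like abundance on that scale was not tested. These correlations are descriptions over 47 cells that share 1 run and 1 scale, and no p is given for them.

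A few pairs stood out from the medians. SNRPGP10 and SNRPGP2 had the highest rho, 0.56, and each was the other's nearest of all tested genes. SNRPG and SNRPGP10 followed with 0.52. Between separate genes the highest was LSM3 with LSM6, both ring subunits, at 0.51 (Pearson r 0.53, rho 0.48 without the 2 cells farthest from the median). Each was at rank 3 among all tested genes for the other. Next within a class was SNRPB with SNRPD1 at 0.46, while the small subunit genes SF3B14 and SF3B5 had the lowest rho of all member pairs, -0.33. In all, 26 of 528 pairs of members (4.92%), those of parents with pseudogene rows included, reached a rho of 0.3, beside 3.05% of all pairs of tested genes.

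**Figure D4:**
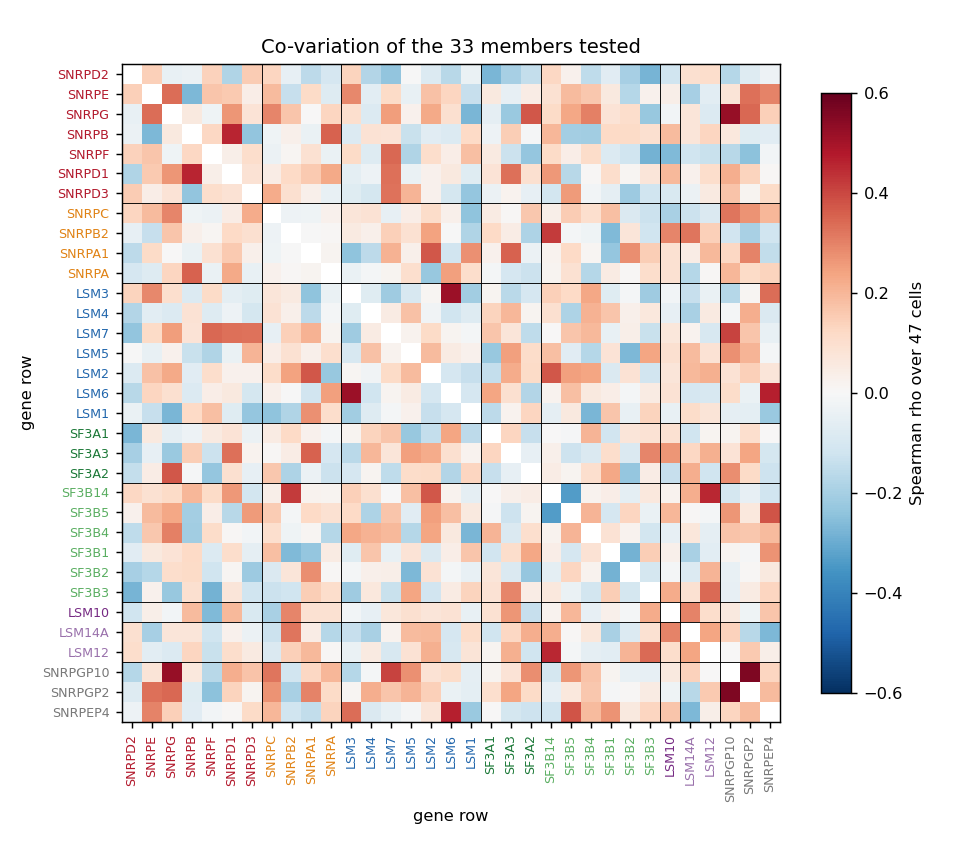
Spearman rho over 47 cells for each pair of the 33 tested members, ordered by class with lines between classes and colours from -0.6 (blue) to 0.6 (red). Most cells of the map are pale, and the darkest red fields are SNRPGP10 with SNRPGP2 (0.56), SNRPG with SNRPGP10 (0.52) and LSM3 with LSM6 (0.51).

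Summed over each class, the LSm and SF3 shares had a higher correlation over cells than either had with the Sm core; the difference between correlations was not tested. The LSm and SF3 sums had a Spearman rho of 0.45 and a Pearson r of 0.42, with r at 0.38 without cells 32 and 75, the 2 farthest from the LSm median. The rho was 0.38 in the 30 cells with label numbers up to 48 and 0.56 in the 17 cells above. The Sm and LSm sums had a rho of 0.23 and the Sm and SF3 sums of 0.090. On UMIs scaled by the spike-ins in place of the endogenous total, these 3 values were 0.83, 0.87 and 0.80, and with TMM library sizes 0.56, 0.55 and 0.38, so the order of the pairs depends on the scale. Over the same cells the SF3 share had a rho of -0.39 with the share of mitochondrially encoded UMIs. The Sm share had one of -0.17 and the LSm share one of -0.12. The part of the mitochondrial share in the relations between the sums was not tested. The Sm share had a rho of 0.020 with the summed share of G1/S genes and -0.23 with that of G2/M genes. For the LSm share these values were -0.13 and 0.034, and for the SF3 share 0.26 and 0.0056.

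**Figure D5:**
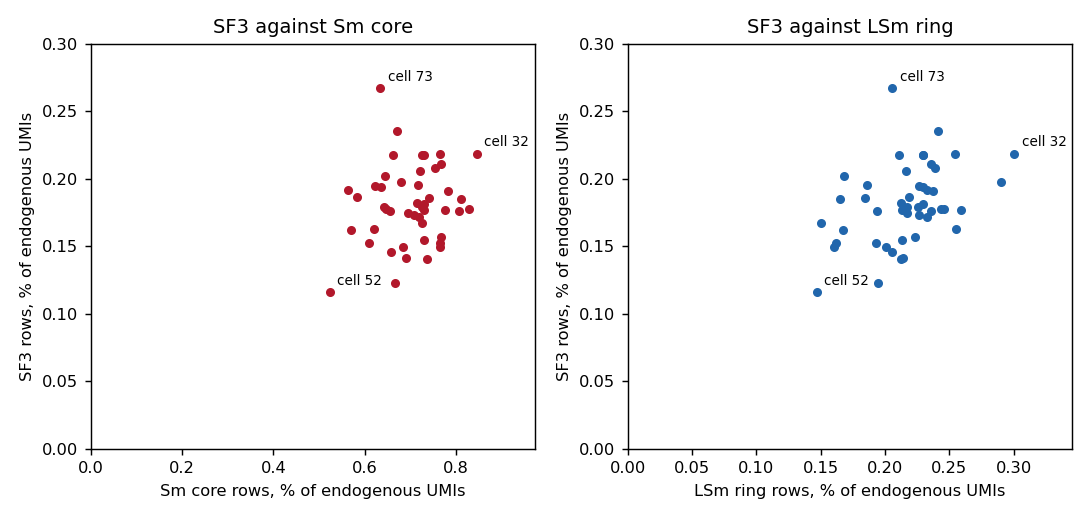
Summed share of the 9 SF3 genes, as percent of endogenous UMIs, against that of the 7 Sm genes (left) and the 7 LSm ring genes (right), with 1 point for each of 47 cells. Cell 52 is lowest on every axis, cell 32 highest for Sm and LSm and cell 73 highest for SF3.

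The start regions of these genes were searched for letters the selection did not use. RefSeq windows (GRCh38.p14) from 250 bases before to 50 after a start site were at hand for 23 of the 27 Sm, LSm ring, U1 and U2 specific and SF3 genes, all but SNRPD1, LSM6, LSM1 and SF3B3. The ETS-type letters CCGGAAG, on either strand, stood in a window of 14 of the 23 genes (60.9%), beside 27.2% of the 5033 tested genes with a window and 12.2% of all 27305 genes in the RefSeq set. By class these were 4 of 6 Sm genes, 3 of 4 U1 and U2 specific genes, 6 of 8 SF3 genes and 1 of 5 LSm ring genes. A site is shown for 3 Sm genes, for the only LSm ring gene with one and for the highest SF3 gene, with 10 bases on each side and the match in capitals, read in the gene's own direction.
SNRPD2: gtccatgcccCTTCCGGatgtaggcag
SNRPG: ttcatttcttCTTCCGGtccgaggtcg
SNRPB: gtgagctggaCCGGAAGtaggtttcta
LSM5: aggcaggccaCTTCCGGcgtagccatg
SF3B14: ggtacagagcCCGGAAGtgtcttggac
They lie at chr19:45692363-45692389, chr2:70293492-70293518, chr20:2470814-2470840, chr7:32490363-32490389 and chr2:24076469-24076495, all on the minus strand, and CTTCCGG is the same motif read on the opposite strand. The TATA-type letters TATAAA stood in a window of 1 of the 23 genes and 7.65% of tested genes, and CCAAT in 7 of the 23 and 44.9%. The other 2 of the 5 motifs searched were the NRF1-type palindrome, in 1 of the 23 and 3.40%, and the YY1-type AAGATGGCG, in 3 of the 23 and 6.30%. A match is a description of these letters and shows neither binding nor a cause of the levels above.

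Proteins that work with these particles were counted from lists that do not overlap the members. The shares of all tested genes, 92.4% against counting error and 7.64% against the spike-in line, are the background for each count. The list of U1, U2 and SF3 partners held 8 tested genes, of which 8 passed against counting error and 1 against the spike-in line. The 1 called was LSMD1, with an adjusted p of 0.00134 (chi-square test, Benjamini-Hochberg). LSMD1 and NAA38, whose names overlap as described above, were then set aside. Of the 6 genes left, 6 passed against counting error and 0 against the spike-in line in the same test. Against that line 0 passed at an unadjusted p under the threshold and 0 with median-of-ratios or TMM scaling. DDX46, a helicase of the U2 particle, and U2AF1, which binds the 3′ splice site, were the most abundant of these 6 with 476 and 367 UMIs. Of 16 genes of the U4/U6.U5 tri-snRNP, 16 and 1 passed. That 1 was NHP2L1, the protein that binds the U4 snRNA stem, which with 2326 UMIs was also the most abundant of its list, ahead of PPIH with 563. Of 10 genes of the PRP19 complex, 9 and 1 passed, the latter CWC15 with 546 UMIs, ahead of CDC5L with 442. Of 15 genes of snRNP assembly and import, 15 and 1 passed. GEMIN5, the subunit that recognises snRNA, was the one called, on 81 UMIs in 25 cells, while CLNS1A and STRAP were the most abundant with 622 and 477. Of 5 tested genes of the minor spliceosome 5 passed against counting error and 0 against the spike-in line (chi-square with Benjamini-Hochberg adjustment; 2 at an unadjusted p under the threshold). Of 4 partners of the LSM1 decay ring these counts were 3 and 0 (0 unadjusted). SNRNP25 and ZCRB1 led the former with 473 and 410 UMIs, and the decapping enzyme gene DCP2 led the latter with 185, followed by DCP1A and EDC3 with 67 each.

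In GENCODE v29, SNRPD2, SNRPD3, SNRPF, SNRPA, LSM1, LSM3, LSM7, SF3A1 and SF3A2 overlap a protein-coding gene on the opposite strand, such as SPPL2B for LSM7 and XPC for LSM3. Whether the counting used strand is not given in the sources used here, so reads of such pairs may be shared.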

How the data were processed

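The authors deposited unnormalized UMI counts, whole numbers for each gene in 47 HEK293 cells. Per the submitters' processing notes cutadapt 1.2.1, STAR 2.4.0a and the builds hg19 and GRCh37 were used. The annotation, UMI collapsing, use of strand and treatment of reads with several matches are not given in the sources used here. All columns matched the label of 1 cell each by run and cell number, with 0 left over. The column names add the word "both", which no label explains, so whether several sets of reads were joined in a column is not known. No doublet call was made, and whether a chamber held more than 1 cell is not given. A repeated header line with values summing to 1859 (0.0602% of all values) carries no gene name and was dropped. Library totals hold no spike-in rows.

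Members and gene lists were chosen with earlier results of these data known. Members were all rows matching the name rule. Each coding member that averaged 1 UMI per cell or more is given with its lowest, median and highest cell. Pseudogene rows are given by their totals, and the index is printed for part of the members. From these counts the index of dispersion was computed for 6151 genes (Python 3.11.15, numpy 2.4.6, scipy 1.17.1, pandas 2.3.3) and tested by chi-square, one-sided, against counting error and against a log-log line through the 52 spike-ins with at least 20 UMIs, taken as exact, adjusted after Benjamini-Hochberg at a threshold of 0.05. The test was checked on simulated counts. Co-variation is Spearman's rho of log2(1 + scaled UMIs). Alternatives were median-of-ratios size factors (DESeq2 1.42.0), TMM library sizes (edgeR 4.0.16), spike-in totals, other abundance minimums, a single spike-in index, thinning, and left-out cells. Leaving out each cell in turn, or the highest cell of a called gene, and adding pseudogene rows to their parents were chosen after seeing the data. With 59689 UMIs in the median cell, a gene at 1 UMI per cell is at 0 in many cells by counting alone.

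Coding sequences came from GENCODE v29 (GRCh38) and start regions from RefSeq (GRCh38.p14), another build than that of the table. The coordinates printed are therefore those of the reference sequences and not of the intervals in which the table's reads were counted. Global alignment counted the differing bases.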

Additional observations from a re-analysis of the deposited data

How the results depend on the processing

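Of the 33 members tested, 31 to 33 passed against counting error under each alternative with all of them tested. The count beyond spike-in noise, 4, was 2 with median-of-ratios size factors (7.88% of all tested genes passed), 9 with TMM library sizes (8.99%), 20 with spike-in UMIs as scale (21.2%), and 2 with 1 median spike-in index for all genes (6.71%), beside 7.64% as reported. At a minimum of 5 UMIs per cell on average, 6 of 29 members passed against spike-in noise (20.7%), beside 24.9% of tested genes. At a minimum of 20 UMIs in all, 3 of 36 members passed (8.33%), beside 5.40% of tested genes. Leaving out 1 cell at a time gave 2 (without cell 2) to 6 (without cell 53 or 75) against spike-in noise and 31 to 32 against counting error. LSM7 and SNRPE kept their calls in 13 of 13 alternatives, SF3B14 in 10 and LSM2 in 8. LSM2 lost its call without any of 18 cells (2, 7, 8, 9, 15, 17, 23, 27, 31, 33, 38, 43, 45, 48, 55, 62, 80 and 85), SF3B14 without cell 2 or 28, LSM5 gained one without cell 40, 53 or 75 and SNRPC without cell 53 or 75; the cause was not tested. As shares of endogenous UMIs without mitochondrially encoded and ribosomal protein genes, whose smaller total raises each share, the Sm core had 1.03%, the LSm ring 0.320% and SF3 0.266%. Spike-in UMIs as scale keep the cells' differences in total UMIs. The median rho was then 0.66 within the Sm core, 0.30 within the LSm ring and 0.22 within SF3. No background of all gene pairs on that scale is given, and the classes differ in abundance. On the same scale the sums correlated at 0.87 (Sm with LSm), 0.80 (Sm with SF3) and 0.83 (LSm with SF3). With TMM library sizes the sums of Sm with LSm and with SF3 correlated at 0.55 and 0.38; the cause was not tested. An abundance minimum was not run for the class sums, which hold all their genes. No paired analysis was possible because the cells form 1 group. Genes near 1 UMI per cell are limited by depth, and single zeros there do not show absence.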
